A study of Mus musculus with 12 samples.

Results

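Eosinophils are granulocytes of barrier tissues, and the genes described here are 9 listed for them in the mouse. Prg2, Prg3, Epx, Ear1, Ear2 and Ear6 encode granule proteins, and Siglecf, Ccr3 and Il5ra encode surface receptors. Which cells of the meninges gave the counts of these 9 genes was not tested. They were taken by symbol from the count table, where all 9 were found among 47747 gene symbols. They were chosen as eosinophil genes with earlier results of the same comparison known, and are thus in part selected on their log2 fold changes between DSS and Control mice. The values of this comparison below therefore describe these genes and are no independent evidence of a direction. The 12 libraries are total RNA of meninges, the membranes that cover the brain, from C57bl/6 mice. In the DSS group, 6 mice drank water with 2% dextran sulfate sodium (DSS), an agent of experimental colitis, for 5 days and plain water afterwards, and were culled after 6 days, with the day of counting not stated. The Control group holds 6 mice of the same strain, also culled after 6 days. The labels give neither what the Control mice drank nor the age or sex of any mouse. The comparison asks how gene expression in the meninges differs in mice given DSS.

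Eosinophils mature in the bone marrow under interleukin 5. They enter tissues along gradients of eotaxins, which bind the receptor CCR3, and carry preformed cationic proteins in their granules. Messages for the granule proteins are made mainly while the granules form in precursors, whereas CCR3 and Siglec-F stand on mature cells and the interleukin 5 receptor on both. In the mouse the granule ribonucleases are the Ear family, a cluster of recently duplicated genes.

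Libraries held 9312788 to 41869997 counts, and DSS libraries (22562800 ± 5489810) and Control libraries (25904700 ± 11565700, SD, n = 6 each) did not differ in depth beyond their spread (exact two-sided permutation test, p = 0.537). Both colon and meninges stand in the labels. The colon epithelium genes Epcam (0.159 to 2.03 CPM, or counts normalised for sequencing depth) and Vil1 (0.199 to 1.17 CPM) were low beside Dcn, a fibroblast gene at 604 to 951 CPM, and the colon factor gene Cdx2 had 0 counts in all libraries. Some libraries stood apart, namely Control replicate 2, where ribosomal RNA rows took 59.8% of counts, and DSS replicate 2, in which the skeletal muscle genes Acta1, Ckm, Mylpf and Myh4 summed to 142 CPM against at most 2.09 CPM in the other DSS and 6.97 CPM in Control libraries. All 6 genes set as eosinophil markers (Prg2, Prg3, Epx, Siglecf, Ccr3 and Il5ra) had at least 1 count in every library, although several had fewer than 10.

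The Ear genes need their sequences beside their counts, because reads of near-identical copies can be split between genes. In the GENCODE M21 transcripts of GRCm38, the first 90 coding bases of Ear1, Ear10, Ear2 and Ear6 read as follows, with capitals for bases unlike Ear1.
Ear1: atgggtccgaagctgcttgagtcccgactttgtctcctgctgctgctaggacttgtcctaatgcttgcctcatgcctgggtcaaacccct
Ear10: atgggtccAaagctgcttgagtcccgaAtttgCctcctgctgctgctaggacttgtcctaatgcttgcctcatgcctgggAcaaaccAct
Ear2: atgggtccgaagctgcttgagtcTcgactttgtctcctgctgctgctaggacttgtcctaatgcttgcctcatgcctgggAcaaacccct
Ear6: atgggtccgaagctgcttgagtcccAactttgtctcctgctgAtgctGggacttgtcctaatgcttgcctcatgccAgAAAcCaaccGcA
Over this stretch Ear2 differs from Ear1 at 2 bases, Ear10 at 5 and Ear6 at 10. Over the whole coding sequence, identity to Ear1 was 95.1% for Ear2, 94.5% for Ear10 and 87.4% for Ear6. Of the 664 distinct 50-base windows in Ear1 transcripts, 57.4% also occur in transcripts of another gene, most often in the pseudogene Ear-ps9 (41.4%). For Ear2 the share was 41.5% of 670 windows, most often in Ear10 (26.0%), while for Ear6 it was 0.954%. Windows of Prg2, Prg3, Epx and Ccr3 were shared with no other gene, and those of Siglecf (0.206%) and Il5ra (1.01%) hardly at all. How the authors' counting treated reads that fit several genes is not given in the sources used here, so the split between Ear1, Ear2, Ear10 and Ear-ps9 is uncertain.

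DSS meninges had about 4 times the Prg2, Epx and Ear1 counts of Control meninges, and about 3.5 times the Ear6 counts. The receptor gene Ccr3, at 0.789-fold, was not called, nor were Siglecf and Il5ra, whose counts were low. Ear2, the eosinophil ribonuclease gene with the highest counted level in Control meninges, differed by 1.39-fold, which did not pass the test. Of the 9 genes, 6 passed the filter on low counts, and Prg3, Siglecf and Il5ra did not. By edgeR's quasi-likelihood test, Benjamini-Hochberg adjusted over 18593 genes, 4 of the 6 rose in DSS mice (Prg2, Epx, Ear1 and Ear6) and 0 fell. Of all tested genes 4.94% changed, with 3.68% risen and 1.26% fallen. A gene high only in DSS libraries could pass the filter through them, and the comparison entered the choice of the genes, so nothing is read from this count. At an unadjusted p under 0.05, 5 were higher and 0 lower, and neither DESeq2 nor limma-voom called any of them lower. This looser cut-off, with both directions counted, was met by 3525 of the 18593 genes, so the shares at an adjusted p are not its background. In bulk RNA, more cells of a type and more RNA per cell cannot be told apart.

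**Figure D1:**
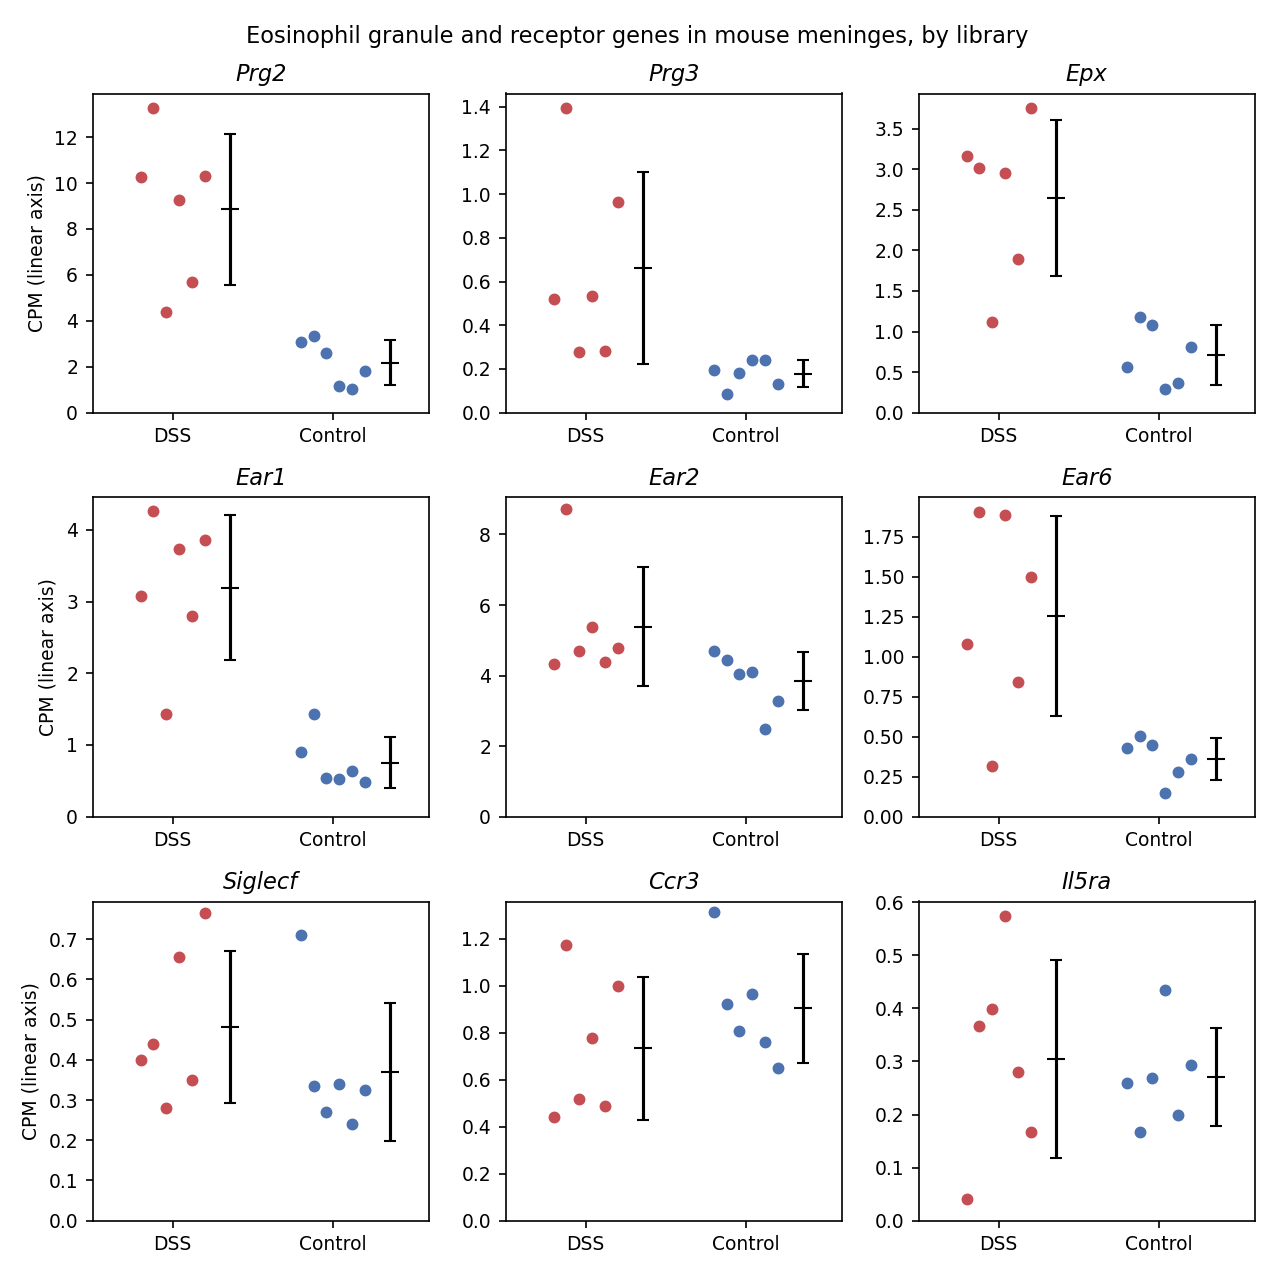
Level of each of the 9 genes in every library, in CPM on linear axes that start at 0 and differ between panels, with DSS libraries left of Control libraries, 1 point a library, and each group's mean and SD as a bar beside its points. Prg2, Prg3 and Ear1 separate the groups completely, while Ccr3, Siglecf and Il5ra overlap.

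Among the granule genes, Prg2 (chromosome 2, 84980461 to 84983632, plus strand; gene positions are those of GENCODE M21 on GRCm38) encodes major basic protein, the cationic core of the eosinophil granule. It lay at 4.39, 9.78 and 13.3 CPM (lowest, median and highest) in DSS libraries, against 1.04, 2.21 and 3.35 CPM in Control libraries. The groups did not overlap, and the lowest DSS library was replicate 3. The means were 8.87 ± 3.29 CPM in DSS and 2.18 ± 0.984 CPM in Control mice (SD, n = 6 each), from 110 to 310 counts per DSS library and 24 to 143 per Control library. The log2 fold change was 2.04 ± 0.33 SE (4.11-fold; edgeR's quasi-likelihood test, Benjamini-Hochberg adjusted p = 0.00257).

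Prg3 (chromosome 2, 84988215 to 84993886, plus strand) lies beside Prg2 on the same strand and encodes the related major basic protein 2. It was under the filter, with 7 to 29 counts per DSS library and 1 to 9 per Control library. Its level was 0.279, 0.527 and 1.39 CPM in DSS, against 0.0838, 0.187 and 0.242 CPM in Control libraries, again without overlap. The pooled level was 0.607 CPM in DSS mice (exact Poisson 95% interval 0.487 to 0.747, counting error only) and 0.185 CPM in Control mice (0.122 to 0.269). With no filter, where 1.77% of 33641 genes rose and 0.464% fell, its log2 fold change was 1.78 ± 0.45 SE (3.44-fold; edgeR's quasi-likelihood test, adjusted p = 0.0474). That call was lost in 10 of 12 fits that left out a single library and kept without DSS replicate 3 (adjusted p = 0.0264) or DSS replicate 5 (adjusted p = 0.0296), with log2 fold changes of 1.5 to 1.94.

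Epx (chromosome 11, 87864000 to 87875536, minus strand) encodes eosinophil peroxidase, which makes hypohalous acids from hydrogen peroxide. Epx lay at 1.12, 2.98 and 3.76 CPM in DSS libraries, against 0.290, 0.687 and 1.17 CPM in Control libraries. The groups touched, since DSS replicate 3 at 1.12 CPM fell just under Control replicate 2 at 1.17 CPM, and the other 5 DSS libraries were above every Control library. The means were 2.65 ± 0.963 CPM in DSS and 0.713 ± 0.369 CPM in Control mice (SD, n = 6 each). The log2 fold change was 1.97 ± 0.36 SE (3.90-fold; edgeR's quasi-likelihood test, adjusted p = 0.00636).

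The ribonuclease genes lie on chromosome 14. Ear1 (43818765 to 43875517, minus strand) had 1.44, 3.41 and 4.26 CPM in DSS libraries, against 0.488, 0.589 and 1.43 CPM in Control libraries. The groups were apart only by a narrow margin, between DSS replicate 3 at 1.44 CPM and Control replicate 2 at 1.43 CPM. The means were 3.19 ± 1.01 CPM in DSS and 0.755 ± 0.361 CPM in Control mice (SD, n = 6 each), with a log2 fold change of 2.10 ± 0.31 SE (4.28-fold; edgeR's quasi-likelihood test, adjusted p = 0.00150). With Prg2 and Prg3, Ear1 was 1 of 3 of the 9 genes with every DSS library above the highest Control library. The same held for 2.23% of all tested genes, which do not include Prg3, Siglecf and Il5ra.

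Ear2 (44102654 to 44103534, plus strand), whose coding bases above differ little from Ear1, was at 4.32, 4.75 and 8.74 CPM in DSS libraries, against 2.48, 4.08 and 4.70 CPM in Control libraries. Of the DSS libraries 4 lay above the highest Control library, and DSS replicate 2 stood far above the other DSS libraries. The log2 fold change was 0.48 ± 0.20 SE (1.39-fold; edgeR's quasi-likelihood test, adjusted p = 0.204) and 0.31 ± 0.16 SE without DSS replicate 2. Ear2 had the highest mean level of the ribonuclease genes in both groups, with means of 5.38 ± 1.69 CPM in DSS and 3.84 ± 0.822 CPM in Control mice (SD, n = 6 each).

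Ear6 (51853699 to 51854643, plus strand) is the ribonuclease gene with the least shared sequence. Ear6 lay at 0.319, 1.29 and 1.91 CPM in DSS libraries, against 0.145, 0.394 and 0.503 CPM in Control libraries. DSS replicate 3 lay inside the Control range and the other 5 DSS libraries above it. The means were 1.26 ± 0.627 CPM in DSS and 0.361 ± 0.131 CPM in Control mice (SD, n = 6 each), with a log2 fold change of 1.79 ± 0.41 SE (3.47-fold; edgeR's quasi-likelihood test, adjusted p = 0.0202). The call was lost without DSS replicate 4 (adjusted p = 0.0553), DSS replicate 6 (0.0530) or Control replicate 5 (0.0546).

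The neighbours that share Ear reads were counted as well. Ear-ps9, the pseudogene that shares most windows with Ear1 and overlaps its annotated exons by 17 bases, is named after its values were seen. It had 138 counts over the DSS libraries and 18 over the Control libraries. Its level was 0.439, 1.01 and 1.20 CPM in DSS libraries and 0, 0.157 and 0.419 CPM in Control libraries, with no overlap (log2 fold change 2.69 ± 0.54 SE; edgeR's quasi-likelihood test, adjusted p = 0.0107). Ear10 was under the filter, with 31 counts in DSS and 17 in Control libraries, as were the other listed Ear and Rnase2 genes found in the table (4 with Ear10, together at 0.0399 to 0.734 CPM in DSS and 0 to 0.302 CPM in Control libraries). When all Ear and Rnase2 ribonuclease rows were summed, which sets aside only how counted reads were split among them, the log2 fold change was 0.99 ± 0.21 SE (edgeR's quasi-likelihood test, adjusted p = 0.0133). Shared reads left uncounted, or counted to Ear-ps9, are not in this sum. With the Ear pseudogenes added to the sum, added after these values were known, it was 1.07 ± 0.21 SE (adjusted p = 0.00890).

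Ear1 and Ear2 are near-identical upstream as well, and the part of upstream sequence in their levels was not tested. The 250 bases before the RefSeq start (GRCm38.p6) are shown for Ear1 (chr14:43819640-43819889, minus strand), Ear2 (chr14:44102404-44102653, plus strand) and Ear6 (chr14:51853518-51853767, plus strand). The Ear1 stretch lies inside the GENCODE gene, which on the minus strand starts at 43875517. The end of the Ear6 stretch also lies inside the GENCODE gene, which on the plus strand starts at 51853699. RefSeq and GENCODE thus place the starts of Ear1 and Ear6 differently. Capitals mark a match to TTGCNNAA, a form of the motif of C/EBP factors.
Ear1: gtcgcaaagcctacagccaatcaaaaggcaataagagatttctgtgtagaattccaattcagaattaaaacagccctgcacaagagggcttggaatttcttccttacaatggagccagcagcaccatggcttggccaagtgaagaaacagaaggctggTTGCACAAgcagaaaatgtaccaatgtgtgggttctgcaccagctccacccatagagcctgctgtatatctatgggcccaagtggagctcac
Ear2: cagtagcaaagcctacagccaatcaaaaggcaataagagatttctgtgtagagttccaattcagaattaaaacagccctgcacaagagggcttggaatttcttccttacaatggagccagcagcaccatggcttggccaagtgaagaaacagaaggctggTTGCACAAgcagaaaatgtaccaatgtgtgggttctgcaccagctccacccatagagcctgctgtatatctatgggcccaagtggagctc
Ear6: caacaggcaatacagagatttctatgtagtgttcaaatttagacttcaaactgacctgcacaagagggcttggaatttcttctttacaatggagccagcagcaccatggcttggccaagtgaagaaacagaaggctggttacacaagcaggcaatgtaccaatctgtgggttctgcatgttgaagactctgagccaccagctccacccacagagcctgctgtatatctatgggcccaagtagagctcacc
Identity of these stretches was 97.6% between Ear1 and Ear2, 78.2% between Ear1 and Ear6 and 77.3% between Ear2 and Ear6. The match starts 92 bases before the start in Ear1 and 90 in Ear2, and Ear6 has none. Prg3, Epx, Siglecf, Ccr3 and Il5ra have none either, and Prg2 has no RefSeq promoter entry. Searched on both strands, TTGCNNAA occurs in 9.56% of 32851 RefSeq promoter windows of this length. A match describes the letters and is not shown to be a bound site.

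Of the receptor genes, Ccr3 (chromosome 9, 124021972 to 124031689, plus strand) encodes the eotaxin receptor, and was the only 1 of the 3 to pass the filter. Ccr3 lay at 0.440, 0.649 and 1.17 CPM in DSS libraries, against 0.650, 0.866 and 1.32 CPM in Control libraries. No DSS library was above the highest Control library, and 3 DSS libraries lay below the lowest. The stricter case of all 6 DSS libraries below the lowest Control library, which Ccr3 did not meet, held for 0.823% of all tested genes. The share of genes with at least 3 below was not counted. The means were 0.733 ± 0.303 CPM in DSS and 0.904 ± 0.231 CPM in Control mice (SD, n = 6 each), with a log2 fold change of -0.34 ± 0.28 SE (0.789-fold; edgeR's quasi-likelihood test, adjusted p = 0.579).

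Siglecf (chromosome 7, 43351341 to 43359531, plus strand) encodes Siglec-F, a sialic acid-binding inhibitory receptor. With 6 to 23 counts per DSS library and 3 to 33 per Control library it was under the filter. Siglecf lay at 0.279, 0.420 and 0.765 CPM in DSS libraries, against 0.240, 0.330 and 0.712 CPM in Control libraries, so the groups overlapped almost completely. The high Control value was that of replicate 1. With no filter the log2 fold change was 0.32 ± 0.37 SE (edgeR's quasi-likelihood test, adjusted p = 0.733), and 0.68 without Control replicate 1.

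Il5ra (chromosome 6, 106710357 to 106749037, minus strand) encodes the ligand-binding chain of the interleukin 5 receptor. It was the lowest of the 9 genes, with 1 to 14 counts per DSS library and 2 to 12 per Control library. Il5ra lay at 0.0400, 0.324 and 0.575 CPM in DSS libraries, against 0.168, 0.264 and 0.435 CPM in Control libraries. The groups overlapped, with 2 DSS libraries below the lowest and 1 above the highest Control library. With no filter the log2 fold change was 0.13 ± 0.47 SE (edgeR's quasi-likelihood test, adjusted p = 0.942). Small differences were not detectable at this depth. Pooled over libraries, Il5ra had 0.293 CPM in DSS mice (exact Poisson 95% interval 0.212 to 0.395) and 0.274 CPM in Control mice (0.196 to 0.373), and Siglecf 0.491 CPM in DSS mice (0.384 to 0.618) and 0.432 CPM in Control mice (0.332 to 0.553).

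The promoters of the receptor genes were searched for AGATAA, a motif of GATA factors, which are required for the eosinophil lineage. Of the 9 genes, 8 were found in the RefSeq promoter table, and Prg2 has no entry there and was not searched. Of the 8, Ccr3 and Il5ra have a match in the 250 bases before the start. The motif occurs in 9.99% of all such windows when both strands are read. The 30 bases around each match are shown with the motif in capitals, at chr9:124021929-124021958 (plus strand) for Ccr3 and chr6:106749094-106749123 (minus strand) for Il5ra.
Ccr3: gtatccatccatAGATAActcaacagagag
Il5ra: ggttggtagggcAGATAAatacctttttct
The matches start 30 and 74 bases before the start. GAGGAAGT, a form of the PU.1 motif present in 2.44% of windows, was found in none of the 8 genes.

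**Figure D2:**
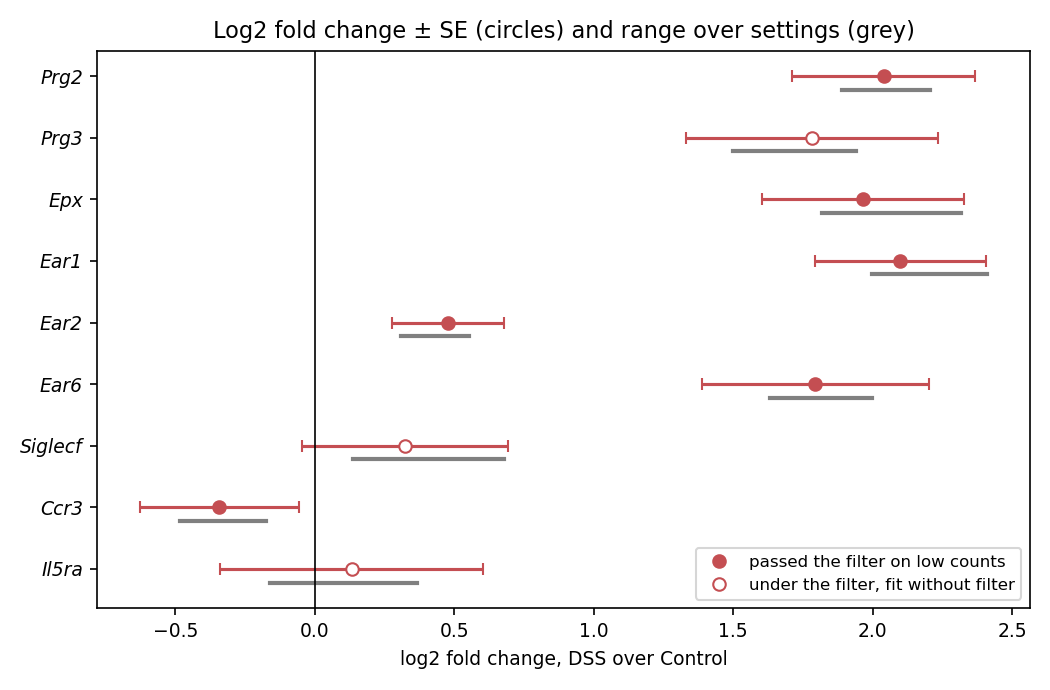
Log2 fold change of DSS over Control mice for the 9 genes (circles) with its standard error as bars, from the fit over all tested genes or, for Prg3, Siglecf and Il5ra (open circles), from the fit with no filter. Grey lines span the values under the alternative settings. The granule genes other than Ear2 lie between 1.78 and 2.10, and the receptor genes between -0.34 and 0.32.

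Ratios within a library do not depend on its depth or scaling, and set the granule genes against the receptor genes directly. Prg2 had 8.46, 11.4 and 23.4 counts for each Ccr3 count in DSS libraries (lowest, median and highest), against 1.20, 2.57 and 3.64 in Control libraries. The groups did not overlap. Prg2, Prg3 and Epx together had 4.83, 7.40 and 15.9 counts for each count of Siglecf, Ccr3 and Il5ra in DSS libraries, against 0.972, 1.93 and 3.24 in Control libraries, also without overlap. In sums over libraries, Prg2, Prg3 and Epx had 1722 counts and the receptor genes 218 in DSS mice, against 437 and 243 in Control mice. The Ear genes, among them Ear2, which was not called, are not in these sums. The ratios restate the genes' own values, and the difference between granule and receptor genes was not tested.

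Ratios were also taken for 2 pairs within the granule genes. Prg2 had 2.74, 3.20 and 4.41 counts for each Epx count in DSS libraries and 2.24, 2.87 and 5.50 in Control libraries, ranges that overlap widely. Ear1 had 0.305, 0.667 and 0.806 counts for each Ear2 count in DSS libraries and 0.129, 0.171 and 0.321 in Control libraries. Those ranges touch, since DSS replicate 3 at 0.305 lay below Control replicate 2 at 0.321. The ratio of these near-identical genes rests on how shared reads were counted.

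**Figure D3:**
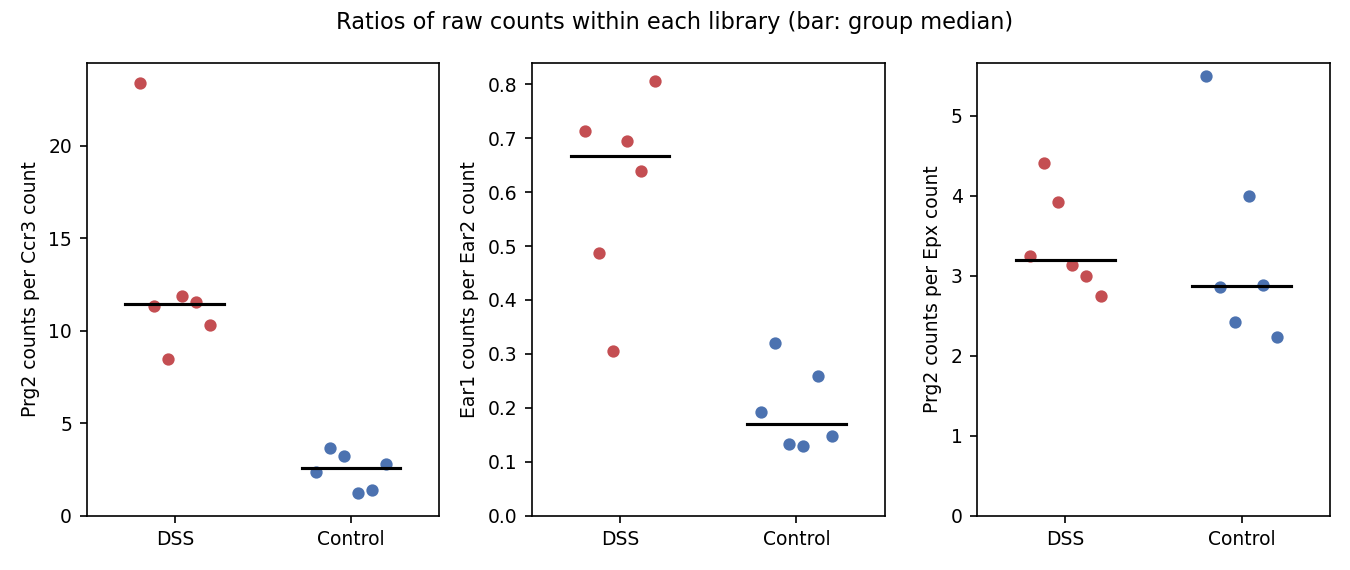
Counts of Prg2 per Ccr3 count, Ear1 per Ear2 count and Prg2 per Epx count within each library, on linear axes from 0, with DSS libraries left of Control libraries and a bar at each group median. The ratio of Prg2 to Ccr3 lies between 8.46 and 23.4 in DSS and between 1.20 and 3.64 in Control libraries, whereas Prg2 to Epx overlaps between the groups.

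Levels of different genes were compared as CPM per kilobase of exon. The full exon length was used, although 57.4% of Ear1 and 41.5% of Ear2 windows are shared with other genes. The places of Ear1 and Ear2 in the orders below thus depend on how shared reads were counted. In DSS meninges the order of the mean levels was Prg2 (10.6 ± 3.92), Ear2 (7.49 ± 2.34), Ear1 (4.38 ± 1.39), Ear6 (1.33 ± 0.663), Epx (0.968 ± 0.352), Prg3 (0.698 ± 0.461), Ccr3 (0.224 ± 0.0925), Siglecf (0.173 ± 0.0676) and Il5ra (0.0852 ± 0.0524; SD, n = 6). Of the neighbours in this order, only Ear2 and Ear1, Ear1 and Ear6, and Prg3 and Ccr3 kept their order in all 6 DSS libraries. Ear6 was above Epx in 4 of 6. In Control meninges Ear2 came before Prg2 in all 6 libraries, at 5.35 ± 1.14 and 2.60 ± 1.17 CPM per kilobase (SD, n = 6). Ccr3 (0.276 ± 0.0707) stood beside Epx (0.260 ± 0.135) there, above it in 3 of 6 libraries, while in DSS meninges Ccr3 lay below Epx and Prg3.

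Of the genes listed for raising and recruiting eosinophils, those for shared receptor chains and some chemokines other than eotaxins rose in DSS mice. The eotaxin genes Ccl11 and Ccl24 were not called by edgeR, and messages of the growth factors themselves were rare. Interleukin 5, the main growth factor, had 10 Il5 counts in DSS and 7 in Control libraries. Il3 had 2 counts in each group, Csf2 15 in DSS and 26 in Control libraries, Il4 35 in DSS and 21 in Control libraries and Il13 2 in DSS and 3 in Control libraries, so differences in them were not detectable at this depth. Of 8 genes for growth factors and alarmins, only Il33 and Tslp were tested, and 0 rose or fell by edgeR, DESeq2 or limma-voom, also at an unadjusted p under 0.05.

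Of 12 genes for the receptor chains of the interleukin 5 family and their signalling, 5 rose and 0 fell. The list's median was 0.25 on the log2 scale, against -0.022 over all tested genes. Csf2rb, the signalling chain shared by the receptors for interleukin 5, interleukin 3 and GM-CSF, had 28.6 ± 6.61 CPM in DSS and 15 ± 2.19 CPM in Control mice (SD, n = 6 each; log2 fold change 0.93 ± 0.15 SE, edgeR's quasi-likelihood test, adjusted p = 0.00235). Csf2rb2, its mouse paralogue used by interleukin 3, had a log2 fold change of 1.07 ± 0.15 SE (edgeR's quasi-likelihood test, adjusted p = 0.000904). Csf2ra, the GM-CSF receptor chain, and the kinase genes Lyn and Syk rose by 0.58, 0.64 and 0.72 on the log2 scale. All of these are also expressed by neutrophils and macrophages, unlike Il5ra.

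Of 7 genes listed as eotaxins and other CCR3 ligands, 3 rose and 0 fell (median 0.44 on the log2 scale). Ccl8, whose mouse product acts on CCR8, had 45.6 ± 20.6 CPM in DSS and 11.7 ± 1.66 CPM in Control mice (SD, n = 6 each; 3.90-fold, edgeR's quasi-likelihood test, adjusted p = 0.00197). Ccl7, a ligand of several receptors including CCR3, and Ccl12, known mainly as a CCR2 ligand, rose by 0.95 and 0.74 on the log2 scale. The Ccl7 call was lost without DSS replicate 6 or Control replicate 3, and leaving out either of them left 1 risen gene in the list. The Ccl12 call was lost in 7 of 12 fits that left out a single library. The eotaxin genes were not called: Ccl11, eotaxin 1, had 1.39 ± 0.331 CPM in DSS and 1.03 ± 0.330 CPM in Control mice (SD, n = 6 each; log2 fold change 0.44 ± 0.23 SE, edgeR's quasi-likelihood test, adjusted p = 0.329). Ccl24, eotaxin 2, had 1.56 ± 0.641 CPM in DSS and 2.80 ± 0.547 CPM in Control mice, with 5 of 6 DSS libraries below the lowest Control library (log2 fold change -0.84 ± 0.26 SE, edgeR's quasi-likelihood test, adjusted p = 0.0813). DESeq2 (adjusted p = 0.0292) and limma-voom (adjusted p = 0.0247) called Ccl24 lower, as did edgeR without DSS replicate 3 (adjusted p = 0.0300).

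Of 10 genes for transcription factors of the eosinophil lineage, 9 were tested, 2 rose and 0 fell (median 0.32 on the log2 scale). Cebpe, the factor for late granulocyte maturation and granule protein genes in neutrophils and eosinophils, had 2.45 ± 0.906 CPM in DSS and 0.410 ± 0.231 CPM in Control mice (SD, n = 6 each; 6.35-fold, log2 fold change 2.67 ± 0.42 SE, edgeR's quasi-likelihood test, adjusted p = 0.00236). Spi1, which encodes the myeloid factor PU.1, rose by 0.75 on the log2 scale (adjusted p = 0.00247). Without DSS replicate 2, 5 of the list rose. Gata1, the factor that eosinophils share with mast and erythroid cells, was under the filter with 53 counts in DSS and 50 in Control libraries. Gata2 had a log2 fold change of -0.047 ± 0.083 SE (edgeR's quasi-likelihood test, adjusted p = 0.835).

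Of 15 other surface and lipid mediator genes of eosinophils, 13 were tested, 8 rose and 0 fell (median 0.67 on the log2 scale). The risen genes were Pirb, a paired inhibitory receptor, Cd300lf, the leukotriene B4 receptor gene Ltb4r1, the lipoxygenase gene Alox5, the integrin genes Itga4, Itgam and Itgb2, and Adgre1, which encodes F4/80. Pirb had 61.1 ± 18.7 CPM in DSS and 22.7 ± 2.20 CPM in Control mice (SD, n = 6 each; log2 fold change 1.43 ± 0.18 SE, edgeR's quasi-likelihood test, adjusted p = 0.000507). These genes are shared with other myeloid cells. Of the genes more restricted to eosinophils, basophils or mast cells, Ptgdr2, the prostaglandin D2 receptor, had 36 counts in DSS and 27 in Control libraries, and Hrh4, a histamine receptor, 23 in DSS and 20 in Control libraries, both under the filter. Alox15, the lipoxygenase of eosinophils and resident macrophages, had 1.65 ± 0.703 CPM in DSS and 1.39 ± 0.763 CPM in Control mice (SD, n = 6 each; log2 fold change 0.20 ± 0.38 SE, edgeR's quasi-likelihood test, adjusted p = 0.849).

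Genes of other granulocytes moved with the eosinophil granule genes. All 12 tested neutrophil genes rose, by a median of 3.28 on the log2 scale, with a summed level of 264 to 1409 CPM in DSS and 70.4 to 202 CPM in Control libraries. All 6 tested primary granule genes of neutrophil precursors rose as well, with a median of 3.65 and a sum of 13.6 to 95.1 CPM in DSS and 3.54 to 9.47 CPM in Control libraries. Mpo, the peroxidase gene closest to Epx in function, had 28 ± 13.8 CPM in DSS and 2.68 ± 1.29 CPM in Control mice (SD, n = 6 each; log2 fold change 3.50 ± 0.44 SE, edgeR's quasi-likelihood test, adjusted p = 0.000532). DSS replicate 3 was the lowest DSS library for Mpo, S100a8 and Cebpe, as it was for Prg2, Prg3, Epx, Ear1, Ear6 and Siglecf. The part of neutrophils and their precursors in the granule gene difference was not tested. Without DSS replicate 3 the log2 fold changes were 2.18 ± 0.30 SE for Prg2, 2.12 ± 0.33 SE for Epx, 2.25 ± 0.26 SE for Ear1 and 2.00 ± 0.32 SE for Ear6. Without Control replicate 2 and DSS replicate 2, the libraries that stood apart, 4 of the genes rose, as in all libraries.

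Progenitor, monocyte, mast cell and basophil genes also rose in part. Of 6 marrow progenitor genes 3 rose (Mki67, Top2a and Myb), with a median of 0.55 on the log2 scale and a sum of 142 to 226 CPM in DSS and 118 to 155 CPM in Control libraries. The rest of this list was not called, with log2 fold changes of 0.16 for Cd34, -0.015 for Kit and -0.0041 for Flt3. The Myb call was lost in 7 of 12 fits that left out a single library. Of 9 monocyte genes 5 rose, with a median of 0.63 and a sum of 637 to 876 CPM in DSS and 562 to 766 CPM in Control libraries. Of 10 mast cell genes, Fcer1a, an IgE receptor chain, and Hdc, which makes histamine, rose, with a median of 0.48 and a sum of 165 to 359 CPM in DSS and 151 to 210 CPM in Control libraries. Of these, 6 rose without DSS replicate 2 and 1 without Control replicate 5. The mast cell protease gene Cpa3 had 41.9 ± 13.3 CPM in DSS and 33.4 ± 3.46 CPM in Control mice (SD, n = 6 each). Of 5 tested basophil genes, Fcer1a rose and Itga2 fell, with a median of 0.90 and a sum of 13.2 to 20.1 CPM in DSS and 11.3 to 14.1 CPM in Control libraries. Leaving out Control replicate 5 ended the Fcer1a call, and the Itga2 call in 11 of 12 fits that left out a single library. The basophil protease gene Mcpt8 was under the filter with 48 counts in DSS and 11 in Control libraries (with no filter, log2 fold change 2.14 ± 0.66 SE, edgeR's quasi-likelihood test, adjusted p = 0.120).

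Genes of resident macrophages, blood and other tissues were listed to see what else the libraries held. Of 10 border-associated macrophage genes C1qb and C1qc rose, 0 to 5 when single libraries were left out, with a sum of 685 to 1527 CPM in DSS and 732 to 916 CPM in Control libraries, and the median was 0.43 on the log2 scale. Mrc1 of the same list had 205 ± 42.3 CPM in DSS and 179 ± 12.0 CPM in Control mice (SD, n = 6 each; log2 fold change 0.20 ± 0.12 SE, edgeR's quasi-likelihood test, adjusted p = 0.396). Of 9 erythroid genes 0 rose or fell by edgeR, DESeq2 or limma-voom, also at an unadjusted p under 0.05, with a median of -0.41 and a sum of 584 to 2525 CPM in DSS and 1383 to 2889 CPM in Control libraries. Hbb-bs, a globin gene that would mark blood in the tissue, had a log2 fold change of -0.47 ± 0.34 SE (edgeR's quasi-likelihood test, adjusted p = 0.509). Lung and airway genes summed to 0.123 to 0.315 CPM in DSS and 0.130 to 0.419 CPM in Control libraries, and 0 of 5 passed the filter. Of the 4 tested tuft cell genes 0 changed by edgeR, with a median of -0.041, while 1 was higher and 1 lower at an unadjusted p under 0.05 and DESeq2 and limma-voom each called 1 lower. No marker of these lists that the table holds was at 0 in all libraries.

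**Figure D4:**
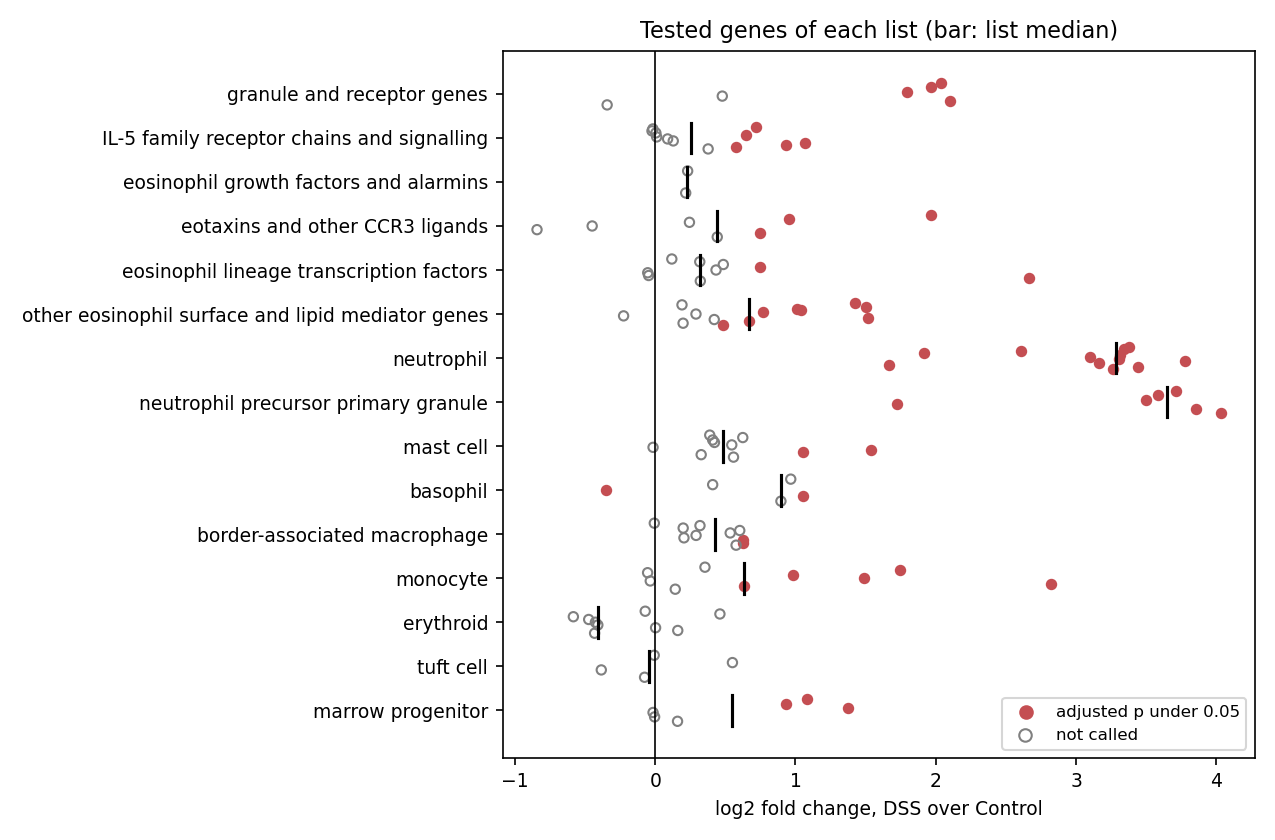
Log2 fold change of DSS over Control mice for each tested gene of the granule and receptor genes and of the other lists, 1 point a gene, filled where the adjusted p was under 0.05, with a bar at the median of each other list. The neutrophil and primary granule lists have medians of 3.28 and 3.65, and the lists of the interleukin 5 family and of the CCR3 ligands 0.25 and 0.44.

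Among tested genes outside the 9, likeness in level was measured over the 12 libraries against the mean of Prg2 and Epx, on the log2 CPM scale and after group means were subtracted. Rgs18, a regulator of G-protein signalling, came first (Pearson r = 0.928, Spearman rho = 0.888), with r = 0.921 within DSS, 0.933 within Control libraries and 0.860 without DSS replicate 3 and Control replicate 4, the libraries farthest from the median. Its own log2 fold change was 0.11. Cryba4, a crystallin gene, Rap2a, a small GTPase gene, Tmem168 and P2ry14, a receptor for UDP-sugars, followed with r of 0.903, 0.900, 0.899 and 0.894. They were picked as the highest of 15159 genes over few libraries, so these values describe the choice and carry no p.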

How the data were processed

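Total RNA of the meninges was sequenced from stranded libraries, per the labels' protocols. The main deposited table gives raw read counts for each gene symbol in each library. The authors' second deposited table is a normalized signal, equal to each count column divided by its median-of-ratios size factor, and was not used for tests. Per the submitters' processing notes, CASAVA, FastQC, Trim Galore, HISAT2, featureCounts and the mm10 build were used. Versions, gene annotation, strandedness and the handling of multi-mapping reads were not given in the sources used here. Of the symbols, 94.8% were found in GENCODE M21 on GRCm38.

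Genes were tested with edgeR 4.0.16 in R 4.3.3: filterByExpr (minimum count 10, minimum total 15), TMM scaling and a two-sided quasi-likelihood F-test of treatment, Benjamini-Hochberg adjusted over all tested genes and called at 0.05. CPM use TMM library sizes. Of these steps, edgeR's scaling and test were tried on simulated counts with known fold changes. The counts were simulated only for genes that had passed the filter on low counts, so the filter itself was not tried. Alternatives were DESeq2 1.42.0 size factors and Wald test, limma-voom (limma 3.58.1) with quality weights, other filters and thresholds, the replicate block, summed Ear genes and omitted libraries. Each mouse gave 1 library. Poisson intervals cover counting error only. Levels per kilobase use the union of GENCODE exons. Sequence windows, coding sequences and identities came from GENCODE transcripts, and promoters from RefSeq.

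The 9 genes and all lists were chosen with earlier results of these data known. Named besides the 9 genes were up to 4 called genes of the smallest p in each list, a fixed set (Il5, Ccl11, Ccl24, Csf2rb, Gata1, Gata2, Cebpe, Alox15, Mpo, S100a8, Cpa3, Mcpt8, Mrc1 and Hbb-bs), and the 5 genes most like Prg2 and Epx. Other genes named were chosen after their values were seen. Some lists share genes: Fcer1a and Ms4a2 stand among mast cell and basophil genes, and Kit among mast cell and marrow progenitor genes.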

Additional observations from a re-analysis of the deposited data

Results flagged for a closer look

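Dixon's criterion for a single sample far from the others was applied to each of the 9 genes in each group of 6 libraries, 18 groups in all. Chance alone singles out about 1 in 20 groups by this criterion. It singled out 2 libraries. For Ear2, DSS replicate 2 had 8.74 CPM, against 4.32 to 5.38 CPM in the other 5 DSS libraries (gap over range 0.760). This is the library with high skeletal muscle genes, and their part in the Ear2 value was not tested. For Siglecf, Control replicate 1 had 0.712 CPM, against 0.240 to 0.339 CPM in the other 5 Control libraries (gap over range 0.791). That library had the most counts of the series, 33 of them from Siglecf.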

How the results depend on the processing

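The number of risen genes among the 9 was 4, and it lay between 3 and 5 in the settings that kept the Ear genes as deposited, with 0 fallen in every setting run. It was 5 with no filter (Prg3 added), and 3 under a filter of CPM of at least 1 in 6 libraries and without DSS replicate 4, DSS replicate 6 or Control replicate 5. With the Ear genes summed, 2 of the genes rose (Prg2 and Epx) as well as the sum, making 3 features. Over 24 settings the log2 fold change of Prg2 was 1.89 to 2.21, and over the 21 settings with a value that of Ear6 was 1.63 to 2.00. The number of changed genes in the whole table was 919 and moved to 1551 with the DESeq2 Wald test, 1641 at an adjusted p under 0.1, and 538 to 1379 with single libraries left out. The replicate numbers paired nothing: correlations of same-numbered libraries were -0.189 to 0.154, and 1 of 6 matched its own number best. With the replicate block 3 of the genes rose (Ear6 at adjusted p = 0.0577 by edgeR) and 708 genes changed. Log2 fold changes near 0 turned sign, and the cause was not tested: Il5ra at -0.16 with no filter and without DSS replicate 4, Alox15 at -0.050 without Control replicate 2 and DSS replicate 2 and -0.011 to 0.49 with single libraries left out, Gata1 at 0.012 to 0.14 without DSS replicate 2 or 3, and Gata2 at -0.078 to 0.0021 with single libraries left out. Without DSS replicate 3, Control replicate 2 and DSS replicate 2, added after these values were known, 4 of the genes rose, Gata1 was at 0.36 and Tslp at -0.015. The lowest counts, those of Il5ra, Prg3 and Siglecf, limit what could be detected.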
